A study of Gallus gallus with 8 samples.

Results

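EPPKL1 is a feature of the count tables whose name points to an epiplakin-like gene. It was chosen by its measured counts, low in monolayers and high in skin equivalents, so the difference between those cultures is described here without a test. It is 1 of 24902 features counted and 1 of 143 that carry a name other than an Ensembl identifier. RNA came from primary chicken skin cells in 4 culture states. These were keratinocytes grown in 3 dimensions as a differentiating skin equivalent (3 libraries), fibroblasts, the cells of the dermis, at confluence (1 library), keratinocytes before confluence (1 library) and keratinocytes in a confluent monolayer (3 libraries). The labels give no genotype, strain, age or added agent for any group, nor do they say whether replicate libraries had separate birds or cultures as their source. Any p-value therefore measures the spread between libraries, which may be technical. The cell type of the skin equivalents is labelled as primary keratinocytes.

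Epiplakin belongs to the plakins, large proteins that tie the cytoskeleton to itself and to cell junctions. In mammals it is built almost wholly of plakin repeat domains, binds keratin intermediate filaments and is found mainly in epithelia, the epidermis among them. Other plakins include plectin, desmoplakin, envoplakin and periplakin, of which the last 2 are parts of the cornified envelope of mammalian epidermis. These roles are background from mammals. RefSeq's gene table of the chicken assembly GRCg7b has no entry under the name EPPKL1, so no sequence or position is given for it.

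Each library held between 27329706 and 36728801 counts given to genes. Levels are given as CPM, counts scaled by TMM to a common library size, and intervals are exact 95% Poisson intervals for levels and exact binomial ones for ratios, which cover counting error only. Of the keratinocyte markers Krt15, Krt5L, Krt14L, TP63, CDH1, EPCAM, DSP and PKP1, only the 3 keratin names could be matched to features. These basal-type keratins, 7 features in all, took 1.89% to 2.77% of gene counts in skin equivalents, 0.000480% in fibroblasts, 4.10% in subconfluent keratinocytes and 1.08% to 1.58% in confluent monolayers. No marker of fibroblasts, melanocytes, endothelial cells or leukocytes could be matched, so their part in any library was not tested. In RNA from whole cultures, fewer cells of a type and less RNA per cell cannot be told apart.

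EPPKL1 had 13060, 16560 and 8897 counts in skin equivalents 1 to 3, 3 counts in fibroblasts, 16 in subconfluent keratinocytes, and 9, 22 and 18 in confluent monolayers 1 to 3. Skin equivalents thus held 38517 of the 38585 counts over the 8 libraries, or 99.82%. No skin equivalent came near any other library. On the CPM scale the levels were 500.3, 647 and 341 in skin equivalents 1 to 3, against 0.303, 0.645 and 0.515 in confluent monolayers 1 to 3. The level was 0.116 CPM in the fibroblast library, with an interval of 0.0239 to 0.339 CPM, and 0.430 CPM in the subconfluent library, with an interval of 0.246 to 0.699 CPM. A count of 3, taken as the floor, corresponds to 0.0807 to 0.117 CPM. The fibroblast library lay on this floor, while the subconfluent library and all 3 confluent monolayers lay above it.

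**Figure D1:**
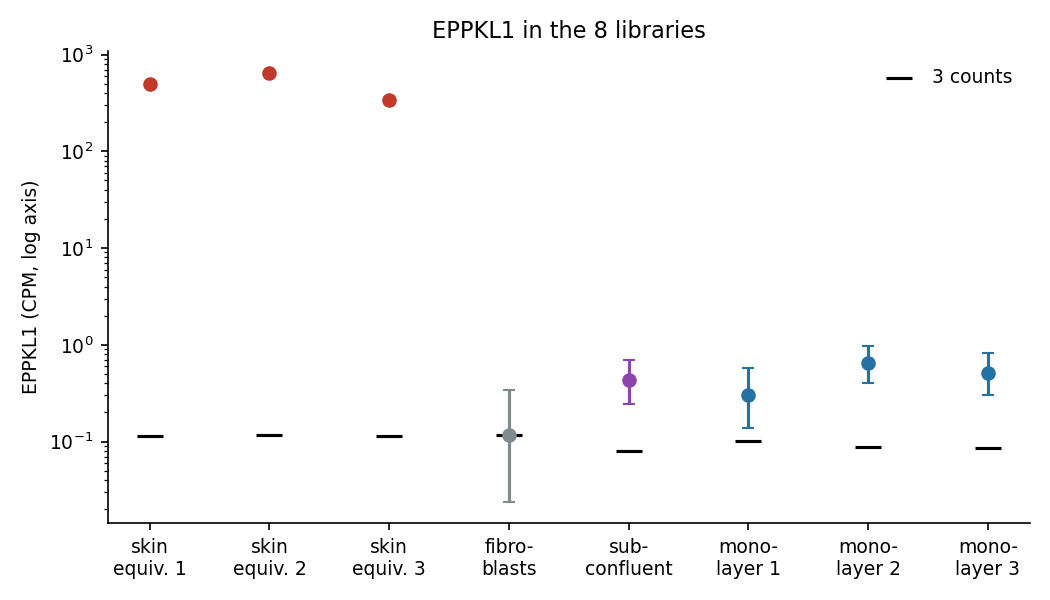
EPPKL1 level in CPM on a log axis in each of the 8 libraries; points are libraries, bars are exact 95% Poisson intervals (smaller than the points in skin equivalents) and black dashes mark the level of 3 counts. Skin equivalents lie between 341 and 647 CPM and every other library lies at 0.645 CPM or lower.

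The mean level was 496 ± 153 CPM in skin equivalents and 0.488 ± 0.173 CPM in confluent monolayers (SD, n = 3 each). The edgeR fit of these 6 libraries gave a log2 fold change of 9.98 ± 0.47 (standard error). EPPKL1 passed the expression filter of this fit only with the help of skin equivalents, so a fall could hardly have been seen. By size of this fold change it stood at place 49 of the 13230 features tested, and 36 of the 102 named features tested had a larger one. Between 7.06% and 8.66% of fragments mapped to several places in skin equivalents, against 4.45% to 4.59% in confluent monolayers. Such fragments stay out of the counts, and mammalian epiplakin consists of closely similar repeats. How many fragments of EPPKL1 were lost in this way was not tested.

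The skin equivalents and the monolayers share title codes, 20 for replicate 1, 34 for replicate 2 and 56 for replicate 3, and the subconfluent title has 20 as well. The labels do not explain them, nor a number d that is 7 for skin equivalent 1, missing for the other two, and 8 for the monolayers. Within code 20, EPPKL1 was 1652-fold higher in the skin equivalent than in the confluent monolayer, with a counting interval of 870-fold to 3613-fold. Within code 34 the ratio was 1004-fold (663-fold to 1602-fold), and within code 56 it was 662-fold (419-fold to 1118-fold). The 3 intervals overlapped one another. The skin equivalent of code 20 was 1162-fold above the subconfluent library of the same code (715-fold to 2034-fold).

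The 3 skin equivalents differed from each other beyond counting error. Skin equivalent 2 had 1.29 times the level of skin equivalent 1 (counting interval 1.26 to 1.32) and 1.90 times that of skin equivalent 3 (1.85 to 1.95). Skin equivalent 1 had 1.47 times the level of skin equivalent 3 (1.43 to 1.51). The coefficient of variation was 30.8%, or 18.1% without skin equivalent 3. Among the 50 named features with a mean of at least 100 CPM in skin equivalents, the median coefficient of variation was 61.6%, with a range of 9.17% to 168%. EPPKL1 thus varied less than 35 of them and more than 14. The limit was on the mean, so a feature high in only 1 skin equivalent could enter with a large spread. CBP38-K, for one, had 0.996, 522 and 9.55 CPM in skin equivalents 1 to 3. The place of EPPKL1, chosen for high levels in skin equivalents, was thus partly set by the choice of features. Each family held even and uneven features. Among corneous beta-proteins, CBP62-K (9.17%) was the most even feature of the 50 and CBP38-K (168%) the least even. Keratins ran from Krt14L1 (12.9%) to Krt78L4 (145%).

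**Figure D2:**
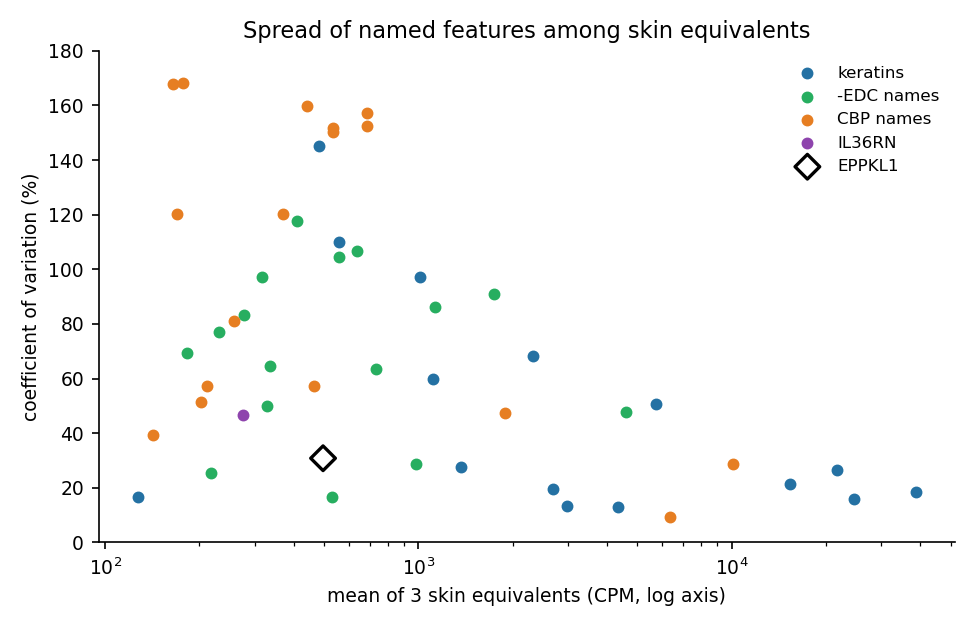
Coefficient of variation over the 3 skin equivalents, in percent, against the mean level in CPM on a log axis, for the 50 named features of at least 100 CPM; each point is a feature, coloured by name family (keratins, epidermal differentiation complex names ending in -EDC, corneous beta-proteins named CBP, IL36RN). EPPKL1, the open diamond, lies at 30.8%, below the median of 61.6%.

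Skin equivalent 2 was the highest and skin equivalent 3 the lowest for EPPKL1. Of the 49 other features in that set, 4 had the same order of the 3 libraries, and they had it with scaling by total count too. These were EDbeta-EDC, CBP11-C, Krt5L2 and IL36RN, a set named only after the order had been seen. IL36RN, by its name the interleukin-36 receptor antagonist, had 307, 384 and 134 CPM in skin equivalents 1 to 3. Krt5L2, a basal-type keratin, had 331, 1254 and 91.7 CPM, and CBP11-C, a corneous beta-protein, had 163, 500 and 113 CPM. EDbeta-EDC, from the epidermal differentiation complex, the cluster of genes for proteins of the cornified skin surface, had 156, 320 and 70.7 CPM. The coefficient of variation of each of these 4, at 46.6% to 110% (IL36RN and Krt5L2 at the ends), was larger than that of EPPKL1. The order rests on 3 libraries, where some of 49 features can be thought to share any given order. No link of these 4 to EPPKL1 is read from it.

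Outside skin equivalents EPPKL1 was low, above the floor in the keratinocyte libraries and on it in the fibroblast library. The fibroblast library had 3 counts against 49 in the 3 confluent monolayers together, a ratio of 0.234 with a counting interval of 0.0466 to 0.724. In the edgeR fit of all 8 libraries the log2 fold change of fibroblasts over confluent monolayers was -2.04 ± 0.77. The low monolayer level was part of why EPPKL1 was chosen, so no test is read from this value. The fibroblast value comes from 1 library that lies on the floor and has no replicate check. In the fibroblast library 2.53% of fragments were ambiguous between genes, against 0.485% to 0.571% in confluent monolayers, and the part of this in the EPPKL1 count was not tested.

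The subconfluent library, also a single one without a replicate check, lay among the confluent monolayers. It had 16 counts of EPPKL1 against 49 in the 3 monolayers together, a ratio of 0.868 with a counting interval of 0.461 to 1.55. The log2 fold change was -0.19 ± 0.56 in the same fit, again given without a test. The level of 0.430 CPM in subconfluent keratinocytes fell within the range of 0.303 to 0.645 CPM in confluent monolayers. Among the monolayers themselves, the widest ratio was 2.13, of monolayer 2 over monolayer 1, with a counting interval of 0.942 to 5.25. In order of level, skin equivalents came far above the rest, then confluent monolayers and subconfluent keratinocytes with overlapping values, then the fibroblast library, whose interval of 0.0239 to 0.339 CPM reached past the level of monolayer 1.

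Keratins are the filaments that mammalian epiplakin binds, so EPPKL1 was also expressed relative to the counts of keratin features in the same library. This ratio does not depend on scaling between libraries. It was 50.1, 48.2 and 25.0 EPPKL1 counts per 10000 keratin counts in skin equivalents 1 to 3, 0.0970 in subconfluent keratinocytes, and 0.203, 0.311 and 0.286 in confluent monolayers 1 to 3. All 32 keratin names together had only 891 counts in fibroblasts, too few for a useful ratio. The mean ratio was 41.1 ± 13.9 in skin equivalents and 0.267 ± 0.0562 in confluent monolayers (SD, n = 3 each), 154-fold higher in skin equivalents. EPPKL1 counts thus differed by more than keratin counts as a whole did. Skin equivalent 3, lowest in EPPKL1, was also lowest in this ratio.

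The keratin family chosen as the base changed the size of the difference. Relative to the basal-type names Krt5L, Krt14L and Krt15, EPPKL1 had 240, 219 and 146 counts per 10000 in skin equivalents 1 to 3, against 0.298, 0.464 and 0.424 in confluent monolayers 1 to 3, and the means differed 510-fold. These names moved both ways in skin equivalents. The log2 fold change was -2.92 for Krt5L2 and -5.83 for Krt5L3, but 2.93 for Krt5L1 and 1.43 for Krt14L1. Krt15 (0.51) and Krt14L2 (0.21) were not called by edgeR. The 510-fold difference thus depends on which names form the base. Relative to the Krt9L and Krt78L names, which together took 7.14% to 10.5% of gene counts in skin equivalents and 0.0267% to 0.0805% in confluent monolayers, it had 63.6, 62.0 and 30.3 counts per 10000 in skin equivalents and 12.1, 9.09 and 8.42 in confluent monolayers, and the means differed 5.27-fold. In confluent monolayers 1 to 3, Krt78L1 alone held 1565, 12783 and 11918 of the 7465, 24212 and 21388 counts of these names. It was lower in skin equivalents (log2 fold change -3.28 ± 0.76, adjusted p = 0.0105 by edgeR). In skin equivalents 1 to 3 it held only 670, 1020 and 334 of the 2055060, 2670558 and 2932860 counts of these names. The 5.27-fold difference would thus be smaller without Krt78L1 in the base, by an amount that was not computed. In subconfluent keratinocytes the ratio to the Krt9L and Krt78L names was 2.54, with a counting interval of 1.45 to 4.12. That lay below the interval of each confluent monolayer, of which the lowest bound was 4.99. These intervals leave out the spread between libraries, and the subconfluent value rests on a single library. These keratins took 0.172% of gene counts in the subconfluent library (63097 counts), against 0.0267% to 0.0805% in the confluent monolayers (7465 to 24212 counts). The EPPKL1 level of the subconfluent library in CPM lay within the range of the monolayers.

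**Figure D3:**
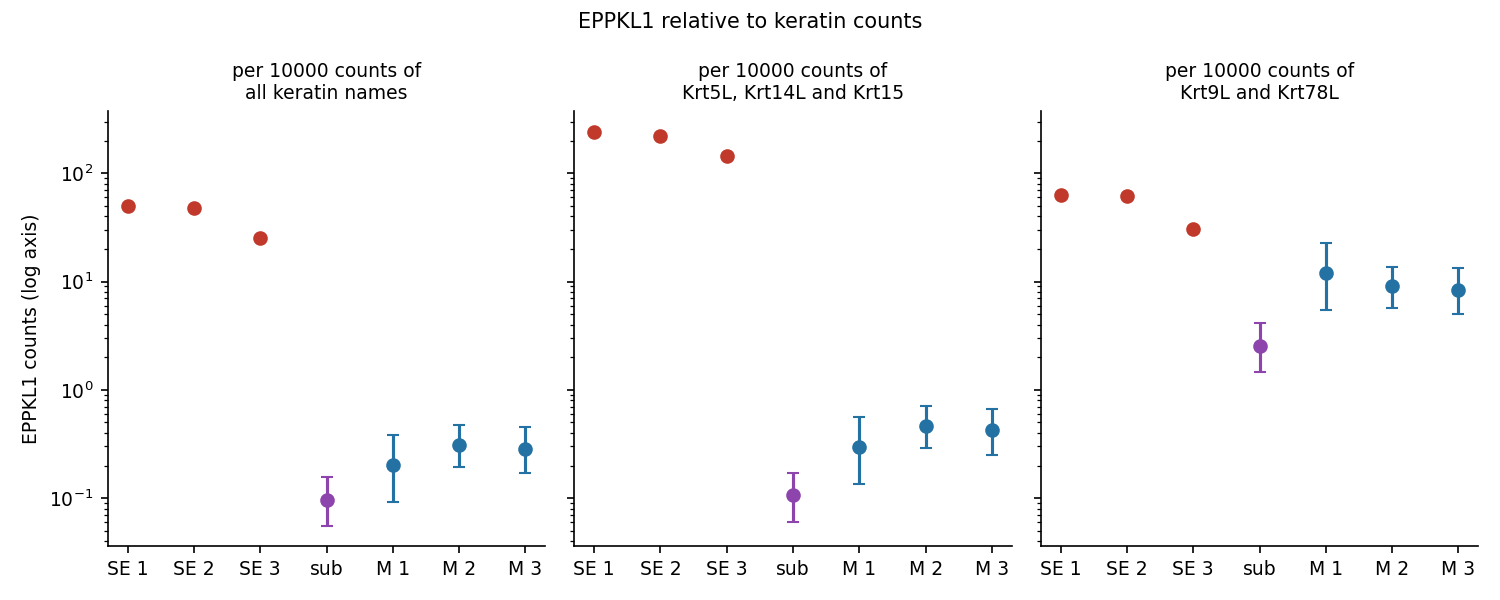
EPPKL1 counts per 10000 counts of all keratin names, of Krt5L, Krt14L and Krt15, and of Krt9L and Krt78L, on a log axis, in skin equivalents (SE), subconfluent keratinocytes (sub) and confluent monolayers (M); points are libraries and bars are exact 95% counting intervals. The gap between skin equivalents and monolayers is 510-fold in the middle panel and 5.27-fold in the right one, by the means. Both values depend on which names form the base, the right one on Krt78L1 among them.

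Keratins themselves moved both ways. In skin equivalents 13 of the 29 tested keratins rose and 10 fell by edgeR, where 25.9% and 23.6% of all features were called higher and lower, and their median log2 fold change was 0.91, against 0.08 over all features. The largest change was that of Krt9L4, with 3015, 2086 and 2984 CPM in skin equivalents 1 to 3, against 0.135, 0.410 and 0.229 CPM in confluent monolayers 1 to 3 (log2 fold change 13.32 ± 0.55, adjusted p = 3.32e-05 by edgeR). Like EPPKL1 it was near the floor in every monolayer, and it had 0 counts in fibroblasts. Krt9L3 followed with a log2 fold change of 12.44 ± 0.80 (adjusted p = 8.78e-05 by edgeR), at 34337, 34911 and 46955 CPM in skin equivalents and 2.49, 10.4 and 8.08 CPM in confluent monolayers. Krt9LC2 had 84.5, 2048 and 911 CPM in skin equivalents and 0.606, 0.586 and 1.66 CPM in confluent monolayers (log2 fold change 10.05 ± 1.39, adjusted p = 0.00134 by edgeR). Its log2 fold change was 9.02 without skin equivalent 2 and 10.71 without monolayer 3. Of these 3, Krt9LC2 was nearest to EPPKL1 in the size of the log2 fold change, but its levels in skin equivalents spread 97.2% about the mean, against 30.8% for EPPKL1.

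In fibroblasts 25 of 31 tested keratins fell and 0 rose by edgeR, where 23% and 21.5% of all features were called lower and higher (44.5% in either direction). The number that rose was also 0 at an unadjusted p under 0.05, with DESeq2 and with limma-voom. The median log2 fold change of the keratins was -9.50, against -0.18 over all features. EPPKL1, near the floor in monolayers, had no room for a fall of that size. Krt5L2, Krt5L3 and Krt78L1 had 0 counts in fibroblasts and were at least 36725-fold, 7699-fold and 2210.2-fold lower there, against the floor of 3 counts in that library. In subconfluent keratinocytes edgeR called 0 of 31 keratins in either direction (up to 1 higher and 2 lower with single libraries left out, both without monolayer 1), with 9 higher and 6 lower at an unadjusted p under 0.05, and 0.606% and 0.726% of all 15019 features were called higher and lower (1.33% in either direction), 91 and 109 in number. Leaving out any one of the 6 replicated libraries moved these numbers by more than 1.5 times in at least one direction, between 0 of either without monolayer 3 and 270.0 higher and 413 lower without monolayer 1. DESeq2 called 6 keratins higher and 5 lower there, and limma-voom called 0 higher and 0 lower.

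None of the 23 symbols in a list of plakins and of desmosome and hemidesmosome genes matched a deposited name, so these partners and relatives of epiplakin were not analysed here. One further name, PLECL, points to a plectin-like gene and was singled out after the names had been seen. PLECL had 0, 4 and 3 counts in skin equivalents 1 to 3, 0 in fibroblasts, 3 in subconfluent keratinocytes, and 0, 2 and 2 in confluent monolayers 1 to 3. It thus lay at or near the floor in all 8 libraries, and no difference could be seen at this depth. EPPKL1 and PLECL were the only plakin-like names in the tables.

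Features with a pattern like that of EPPKL1 were looked for across all 8 libraries. Likeness was measured over the 8 libraries as the root mean square difference of log2(CPM + 0.5) after each feature's mean had been taken off, which compares 15018 features and has a median of 4.45. The 6 named features with the smallest difference were CBP65-K (0.68), EDQM1-EDC (0.69), EDQM2-EDC (0.70), LOR1-EDC (0.89), EDCH1-EDC (0.90) and LOR2-EDC (0.96). CBP65-K is a corneous beta-protein, one of the proteins that build scales, claws, beaks and feathers. The other 5 belong by name to the epidermal differentiation complex, and LOR1-EDC and LOR2-EDC are by name loricrins, in mammals major components of the cornified envelope. In all, 14 features, 8 of them named, lay within a difference of 1. Of the 143 names in the tables, 35 end in -EDC and 70 begin with CBP, so most names are of these 2 kinds to begin with. Of the features without a name, ENSGALG00000028598 (0.73) and ENSGALG00000045255 (0.74) were nearest. These features were picked for their pattern, so their levels are a description too.

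Their levels in skin equivalents differed from library to library in other ways than EPPKL1. CBP65-K had 82.2, 262 and 265 CPM in skin equivalents 1 to 3 and 0 counts in confluent monolayers 1 to 3. EDQM1-EDC had 511, 190 and 288 CPM in skin equivalents and 0.505, 0.234 and 0.172 CPM in confluent monolayers. LOR1-EDC had 946, 719 and 1282 CPM in skin equivalents and 0.101, 0.0879 and 0.115 CPM in confluent monolayers. LOR2-EDC was the least even, with 963, 94.8 and 169 CPM in skin equivalents and 0.0337, 0.0586 and 0.0573 CPM in confluent monolayers. The EDQM and LOR2 names and EDCH1-EDC were highest in skin equivalent 1, where EPPKL1 was at its middle level. Likeness therefore rests mainly on the gap between skin equivalents and the rest, as it stands with 0.5 CPM added. Outside skin equivalents most levels lay below or near that 0.5, so the size of the fold change was not matched. In the edgeR fit of 6 libraries the log2 fold change was 15.54 for CBP65-K, 13.19 for LOR1-EDC and 12.87 for LOR2-EDC. It was 10.58 for EDQM2-EDC, 10.09 for EDQM1-EDC and 9.02 for EDCH1-EDC, against 9.98 for EPPKL1. With a pseudocount of 0.1 in place of 0.5, 3 of the 6 named features remained among the 6 nearest, and when features were ranked by Pearson correlation 1 remained, LOR1-EDC.

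**Figure D4:**
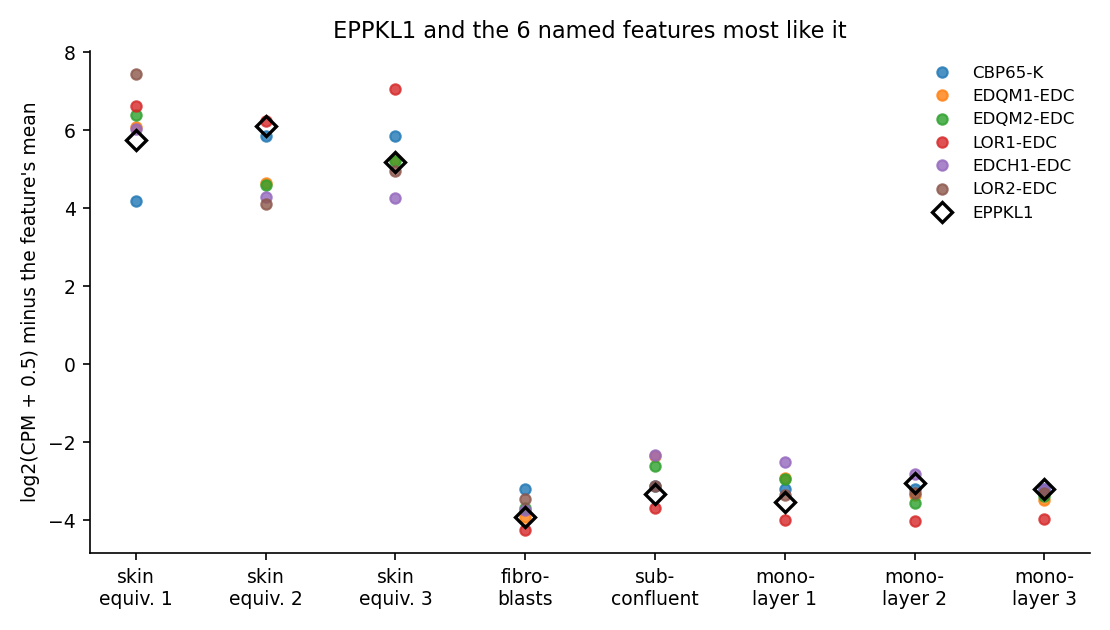
Values of log2(CPM + 0.5) minus each feature's mean over the 8 libraries, for EPPKL1 (open diamonds) and the 6 named features with the smallest root mean square difference from it; each point is 1 library. All 7 features lie above 4 in every skin equivalent and below -2 in every other library.

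A stricter description of the pattern asked for under 1 CPM in each of the 5 libraries other than skin equivalents and at least 100 CPM in each skin equivalent. EPPKL1 was chosen for such a switch, so its own place was given. Of the 24902 features, of which 15019 passed the expression filter of the fit of 8 libraries, 10 met it, 8 of them named. The named ones were EPPKL1, the keratin Krt9L4, CBP62-K, and LOR1-EDC, LOR3-EDC, EDQM1-EDC, EDQM2-EDC and EDCH1-EDC. With limits of 2 and 50 CPM the number was 19, and with CPM scaled by total count it was 8.

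The few counts of these 10 features outside skin equivalents were compared as a share of each feature's counts in the 3 skin equivalents together. All 10 were picked for under 1 CPM outside, so a feature with a higher level in skin equivalents could only reach a lower share. The mean there ran from 134 CPM for ENSGALG00000045255 to 6358 CPM for CBP62-K, with EPPKL1 at 496 CPM. The place of EPPKL1 among the 9 others was thus partly set by the choice of features. For EPPKL1 the share was 0.00779% in fibroblasts, 0.0415% in subconfluent keratinocytes, and 0.0234%, 0.0571% and 0.0467% in confluent monolayers 1 to 3. In the fibroblast library 8 of the 9 other features had 0 counts, and EPPKL1 was above all 9. In confluent monolayers 2 and 3 it was above 8 of the 9, whose medians were 0.00667% and 0.00523%. In monolayer 1 and in the subconfluent library it was above only 4 of the 9, whose medians were 0.0457% and 0.0767%. Several names of the epidermal differentiation complex had the larger shares in these 2 libraries, among them EDCH1-EDC with 0.172% in the subconfluent library and 0.111% in monolayer 1. Within a library the shares differed widely between features, from 0.00425% for CBP62-K to 0.172% for EDCH1-EDC in the subconfluent library. These 2 features had 21 and 31 counts there. Their gap in share came mostly from their means in skin equivalents, 6358 CPM for CBP62-K and 231 CPM for EDCH1-EDC. The shares of EPPKL1 rest on 3 to 22 counts.

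**Figure D5:**
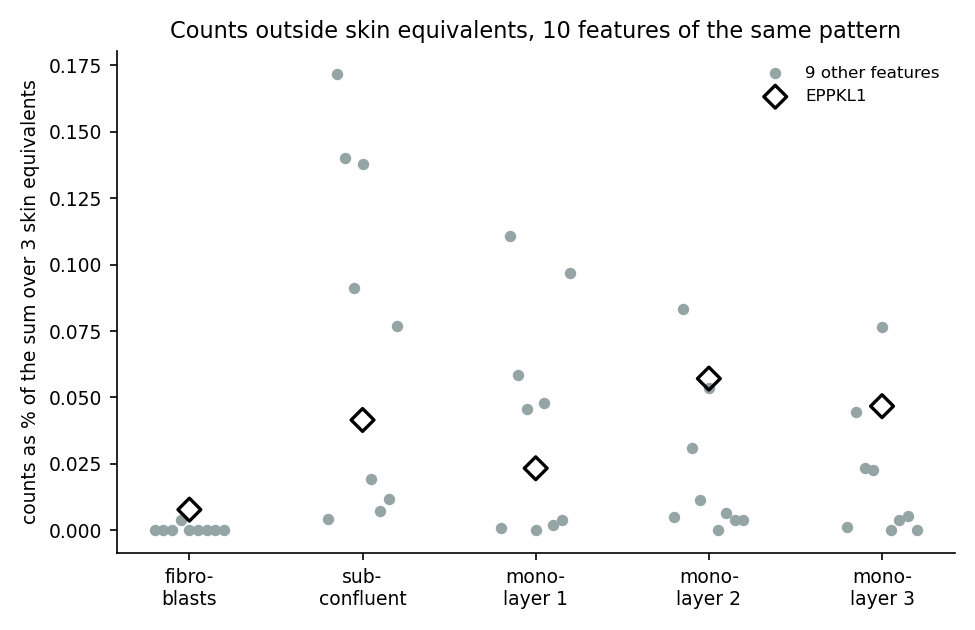
Counts in each library outside skin equivalents as a percentage of the feature's summed counts in the 3 skin equivalents, for EPPKL1 (open diamonds) and the 9 other features under 1 CPM outside skin equivalents and at least 100 CPM in each of them (grey points, spread sideways for legibility). EPPKL1 is above 8 of the 9 in monolayers 2 and 3 and above 4 of the 9 in the subconfluent library and monolayer 1. The limit of 1 CPM holds this percentage lower for features with higher levels in skin equivalents.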

How the data were processed

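The authors deposited whole-number counts per feature for 8 libraries, without normalisation. Per the labels, RNA was poly(A)-selected, libraries were strand-preserving and paired reads of 75 bases were sequenced. DESeq2 1.22.2, RSEM, STAR 2.6.1a and bcl2fastq 2.19.1.403 are listed, per the submitters' processing notes, with no role stated. For genome build, annotation and strand setting, nothing is given in the sources used here, and fragments of overlapping genes are uncertain. The 4 rows of no gene held 28.7% to 35.5% of fragments and stayed out of library sizes and tests.

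EPPKL1, the lists and the tests were chosen with earlier results of these data known. The quasi-likelihood test of edgeR 4.0.16 (R 4.3.3; TMM, robust, default filter) was fitted over all features, with Benjamini-Hochberg adjustment at 0.05. One fit held the 6 skin equivalents and confluent monolayers, another all 8 libraries, where lone libraries are assumed to vary like the replicated groups. For EPPKL1 no test is read from either fit, although one had been planned for fibroblasts and subconfluent keratinocytes, since its monolayer level chose it. Standard errors come from the fold and the test statistic. Both fits were also run on simulated counts with the same spread for all features and few changed ones. That setting differs from these data, so no accuracy here is read from it. DESeq2 1.42.0 and limma 3.58.1 were alternatives, besides other scaling, filters and leaving out libraries. Named features were EPPKL1, the 6 named and 2 unnamed features most like it, and the 3 largest called keratin changes per comparison. Others were named after their values were seen.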

Additional observations from a re-analysis of the deposited data

How the results depend on the processing

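EPPKL1 was chosen for its higher level in skin equivalents, so its direction there, kept under all 15 alternatives, could hardly have changed. Its log2 fold change was 9.63 to 10.21 over single libraries left out. It was 9.96 with the replicate number as a block and 9.63 among the libraries with wo in their titles. The labels do not explain this mark. Whether the replicate numbers pair the samples cannot be told from 3 libraries per group. Same-numbered libraries correlated at -0.06, -0.13 and 0.16 in their deviations from the group means, and differently numbered ones at -0.21 to 0.19. Over single libraries left out, the log2 fold change was -2.32 to -1.79 in fibroblasts, and -2.35 with scaling by total count, and -0.54 to -0.02 in subconfluent keratinocytes. The mean of 41.1 EPPKL1 counts per 10000 keratin counts in skin equivalents became 201 over basal-type names, and that of 0.267 in confluent monolayers became 0.395 over basal-type and 9.85 over Krt9L and Krt78L names. Of the 6 most like named features, 3 remained with a pseudocount of 0.1 and 1 with correlation. The set of 10 features of the same pattern became 19 with looser limits and 8 with scaling by total count. The spread of EPPKL1 among skin equivalents was 18.1% to 43.8% with 1 left out, the lowest without skin equivalent 3. For subconfluent keratinocytes, 91 features were called higher and 109 lower, a number that moved widely. It was 39 higher with DESeq2's size factors, 34 higher with total count scaling, 203 higher and 200.0 lower with the stricter filter, 680.0 and 1230.0 with DESeq2, and 155 and 208 with limma-voom. With single libraries left out it was 0 to 270.0 higher and 0 to 413 lower. Keratins called there numbered 0, but 1 lower with the stricter filter, 6 higher and 5 lower with DESeq2, and 0 to 1 higher and 0 to 2 lower with single libraries left out. The causes were not tested. Depth limits every value outside skin equivalents, where EPPKL1 had 3 to 22 counts.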
